A study of Homo sapiens with 3 samples.

Results

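The microRNA genes that gave a measurable array signal in DLD1 cells, an established line from a human colon cancer, were described on arrays made after transfection with a control siRNA, siH19-1 or siH19-2. A gene was included when its probe set carried 1 platform symbol of the form MIR plus digits or MIRLET7 and its mean log2 signal over the 3 arrays was 5 or more. Symbols of the MIR548 family, host genes and MIR675 were left out, and the brightest probe set stood for a gene with several. Of 998 microRNA genes measured in this way, 168 (16.8%) were included and 830 lay under 5. The genes were thus chosen by their mean signal, and their levels are a description.

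Each of the 3 conditions was measured once, on an Affymetrix whole-transcript array made from 500 ng of biotin-labelled total RNA, and no difference below has a replicate check. Cells received 50 nM siRNA with Lipofectamine RNAiMAX, per the labels' protocols; these give 48 hours of transfection, whereas the series' design text gives 24. H19 is an imprinted long noncoding RNA, and siH19-1 and siH19-2 are the 2 siRNAs against it, so the design asks which transcripts move when H19 is targeted. DLD1 is a single established line, and all 3 arrays come from it. Both differences use the same control array, so agreement between them is not independent. In bulk RNA, less RNA per cell and fewer cells with the RNA cannot be told apart. "Rose" and "fell" are used for a difference of at least 1.5-fold (0.58 on the log2 scale).

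A microRNA gene is transcribed as a long primary transcript, often as part of the intron of a host gene. The nuclear enzyme DROSHA, with DGCR8, cuts out a hairpin, XPO5 exports it, DICER1 trims it, and an Argonaute protein carries the mature strand to messenger RNAs. Target choice rests largely on the seed, bases 2 to 8 of the mature strand. The signals below are from total RNA on a whole-transcript array, and which RNA form gave them, primary transcript, hairpin or host RNA, was not tested. Mature microRNA levels were not analysed here.

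Mature sequences were taken from RefSeq (GRCh38.p14), which gave 208 of them for 153 of the 168 genes, with 199 different seeds. In every sequence shown, the capitals mark the seed. The first set belongs to the 6 genes that differed from control by at least 1.5-fold in the same direction with both siRNAs. MIR2054 and MIR3613 were the lower ones, and MIR3685, MIR186, MIR4692 and MIR1260A the higher ones.
hsa-miR-2054: cUGUAAUAuaaauuuaauuuauu
hsa-miR-3613-5p: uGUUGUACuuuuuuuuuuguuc
hsa-miR-3613-3p: aCAAAAAAaaaagcccaacccuuc
hsa-miR-3685: uUUCCUACccuaccugaagacu
hsa-miR-186-3p: gCCCAAAGgugaauuuuuuggg
hsa-miR-4692: uCAGGCAGuguggguaucagau
hsa-miR-1260a: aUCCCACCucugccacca
The seeds in this set all differ. The mature strand of miR-2054 lies at chr4:125507259-125507281 on the plus strand and has a GC content of 8.7%. That of miR-3613-5p lies at chr13:49996465-49996486 on the minus strand, and that of miR-186-3p at chr1:71067642-71067663 on the minus strand. The mature strands of miR-3685, miR-4692 and miR-1260a lie on the plus strand at chr12:95309928-95309949, chr11:72783566-72783587 and chr14:77266231-77266248.

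The second set belongs to the 5 genes with the highest mean signal, which are described by their position below.
hsa-miR-622: aCAGUCUGcugagguuggagc
hsa-miR-5047: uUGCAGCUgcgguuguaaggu
hsa-miR-1303: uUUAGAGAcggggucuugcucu
hsa-miR-1268a: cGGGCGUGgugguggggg
hsa-miR-574-5p: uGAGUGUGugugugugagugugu
hsa-miR-574-3p: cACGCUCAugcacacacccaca
The third set shows the seeds held by more than 1 of the genes. There were 8 of these seeds, over 17 genes, and they allow genes whose products would address the same kind of target site to be set side by side.
hsa-miR-181b-5p: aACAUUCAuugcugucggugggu
hsa-miR-181d-5p: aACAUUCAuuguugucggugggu
hsa-miR-4262: gACAUUCAgacuaccug
hsa-miR-21-5p: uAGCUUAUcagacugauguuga
hsa-miR-590-5p: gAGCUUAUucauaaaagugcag
hsa-miR-4295: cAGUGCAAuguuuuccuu
hsa-miR-454-3p: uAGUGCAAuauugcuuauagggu
hsa-miR-4434: aGGAGAAGuaaaguagaa
hsa-miR-4516: gGGAGAAGggucggggc
hsa-miR-1260a: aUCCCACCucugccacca
hsa-miR-1260b: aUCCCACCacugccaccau
hsa-miR-4296: aUGUGGGCucaggcuca
hsa-miR-4322: cUGUGGGCucagcgcgugggg
hsa-miR-1285-3p: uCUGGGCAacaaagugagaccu
hsa-miR-3180: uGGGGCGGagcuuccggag
The last of these lines each stand for a pair of genes with the same mature strand, MIR1285-1 with MIR1285-2 and MIR3180-4 with MIR3180-5.

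The probe set of the targeted transcript, shared by H19 and MIR675 (TC11001273.hg.1), read 7.88 on the control array, 7.74 on the siH19-1 array and 7.37 on the siH19-2 array. It was lowest with siH19-2, at 70.2% of the control signal, and at 90.8% with siH19-1, so neither array fell by 1.5-fold. Median signals over all probe sets were 3.47, 3.53 and 3.57 in the same order. Of 12 colon epithelial marker genes 8 were at 5 or more, CDH1, EPCAM, KRT8, KRT18, KRT19, CDX2, CLDN7 and ESRP1, while KRT20, CDX1, VIL1 and LGALS4 were below it. Of 11 measured marker genes of other cell types, 1 was at 5 or more, the macrophage gene CD68. The 11 measured microRNA genes typical of other cells, such as MIR126 of endothelium and MIR223 of myeloid cells, had means between 2.31 and 3.37.

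Mean log2 signals of the 168 genes ran from 5.01 to 15.17 with a median of 6.33. Most were dim: 67 lay between 5 and 6, 43 between 6 and 7, 21 between 7 and 8, 25 between 8 and 10, and 12 at 10 or more. Brightness depends on the probes as well as on the RNA, so the order of the genes is not an order of abundance. On all 3 arrays 156 of the genes were at 5 or more, and the other 12 were under 5 on 1 or 2 arrays. By array, 160 were at 5 or more in control, 163 with siH19-1 and 165 with siH19-2. Just inside the limit stood MIR3662, MIR147A and MIR3978, each with a mean of 5.01. Just outside it stood MIR3671 (4.99), MIR486-1 (4.98) and MIR1913 (4.98).

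The brightest probe set carried the name MIR622 and read 15.26 on the control array, 15.26 on the siH19-1 array and 15.00 on the siH19-2 array. Values given as 3 numbers below keep this order. RefSeq places MIR622 inside KRT18P27, a pseudogene of KRT18, the keratin of simple epithelia. The KRT18 probe set itself (TC12000424.hg.1) read 15.26, 15.26 and 14.99. The readings of both probe sets therefore ran side by side on every array, and whether the MIR622 probes also bind KRT18 RNA was not tested. Of the other genes that overlap a pseudogene with a measured parent, MIR4468 in RCC2P3 read 6.53, 6.68 and 6.63, with RCC2 at 13.29, 13.08 and 12.83. MIR572 in RNPS1P1 read 6.21, 6.13 and 6.30, with RNPS1 at 10.45, 10.49 and 10.33, and MIR3180-4 lies in PKD1P6.

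The next brightest, MIR5047, read 14.04, 14.42 and 14.92. It was highest with siH19-2, where it rose by 0.88 (1.84-fold), and it was 0.38 above control with siH19-1. MIR5047 lies within DDX5, on the same strand; DDX5 encodes an RNA helicase that works with the DROSHA complex. The probe set named for DDX5, MIR3064 and MIR5047 together (TC17001800.hg.1) read 15.57, 15.53 and 15.46. The sets thus differed in direction, with the one named for MIR5047 alone above control on both siRNA arrays and the shared one slightly below it.

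MIR1303, within LARP1, which encodes a binding protein of ribosomal protein messenger RNAs, read 14.12, 14.36 and 14.40. LARP1 itself read 10.87, 10.45 and 10.08 and so fell with siH19-2 (by 0.79), while MIR1303 stayed within 0.28 of control. MIR574, whose host is FAM114A1, read 12.67, 12.81 and 13.07. MIR1268A (13.21, 13.41 and 13.19), MIR4472-2 (12.28, 12.62 and 12.64) and MIR4466 (12.55, 12.28 and 12.68) stayed within 1.5-fold of control. MIR4466 lies on the strand opposite to ARID1B, a gene of the BAF chromatin remodeller.

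MIR4454 read 11.40, 11.93 and 11.84, above control with both siRNAs by 0.53 and 0.44. Its probe set identifier names chromosome 5, whereas RefSeq places the gene on chromosome 4. MIR1256 was the other gene with such a mismatch. Its brightest probe set, on chromosome 10 by its identifier, read 8.38, 8.32 and 8.57, and its set on chromosome 1, where RefSeq places the gene, read 3.26, 3.24 and 3.11. The remaining set, on chromosome X by its identifier, read 6.04, 6.69 and 6.68, with control lowest, and rose with both siRNAs (0.65 and 0.64); it did not stand for the gene because it was not the brightest. The signals under these 2 names are therefore tied to the named gene only by the platform's annotation. Over all probe sets with 1 symbol, 99.7% of 22434 matched in chromosome. MIR3143 (10.77, 11.38 and 11.32) rose with siH19-1, by 0.61, and was 0.55 above control with siH19-2. MIR1910 read 10.41, 10.95 and 11.27, lowest in control, and rose with siH19-2, by 0.86; its host C16orf74 read 3.77, 3.74 and 3.74.

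As a group the microRNA genes lay above control. Their median difference was 0.10 with siH19-1 and 0.25 with siH19-2, beside -0.06 and -0.07 over all 9630 genes at 5 or more. Under median centring, quantile normalization and cyclic loess the medians stayed above 0, from 0.04 to 0.13 with siH19-1 and from 0.15 to 0.26 with siH19-2. With siH19-1, 109 of the 168 (64.9%) were above control, beside 36.1% of all compared genes. With siH19-2 the number was 130 (77.4%), beside 39.9%. Above control with both siRNAs were 94 genes (56.0%), beside 23.6% of all compared genes, and below control with both 22 (13.1%), beside 45.6%. Most differences were small: 105 genes lay within 0.25 of control with siH19-1 and 70 with siH19-2. For scale, among 70 genes with several probe sets at 5 or more, the SD of the difference between sets of the same gene was 0.23 (siH19-1) and 0.30 (siH19-2). The 830 microRNA genes under 5 lay slightly above control in the values as deposited. Their medians were 0.05 with siH19-1 and 0.07 with siH19-2, and 62.8% and 66.0% of them were above control. The array median over all probe sets also rose, from 3.47 in control to 3.53 with siH19-1 and 3.57 with siH19-2. These dim genes were not counted again after median centring. Whether they lean upward apart from that shift was thus not tested.

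With siH19-1, 9 microRNA genes rose (5.36%) and 3 fell (1.79%), where 1.58% of all compared genes rose and 2.63% fell. With siH19-2, 28 rose (16.7%) and 6 fell (3.57%), where 2.94% of all compared genes rose and 8.95% fell. The share of the genes that rose was thus above the background with each siRNA, and over all signals the share that fell was below it; with single arrays these shares were not tested. After each array was centred on its own median, the split of rises to falls went from 75.0% to 62.5% rises with siH19-1 and from 82.4% to 69.2% with siH19-2, and after cyclic loess it was 85.7% with siH19-1 and 77.1% with siH19-2. After quantile normalization it was 83.3% and 78.9%. Among the 156 genes at 5 or more on every array, 9 rose and 3 fell with siH19-1, and 25 rose and 6 fell with siH19-2. The matching share of all compared genes was not counted for this smaller set, so these counts say nothing of a surplus.

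**Figure D1:**
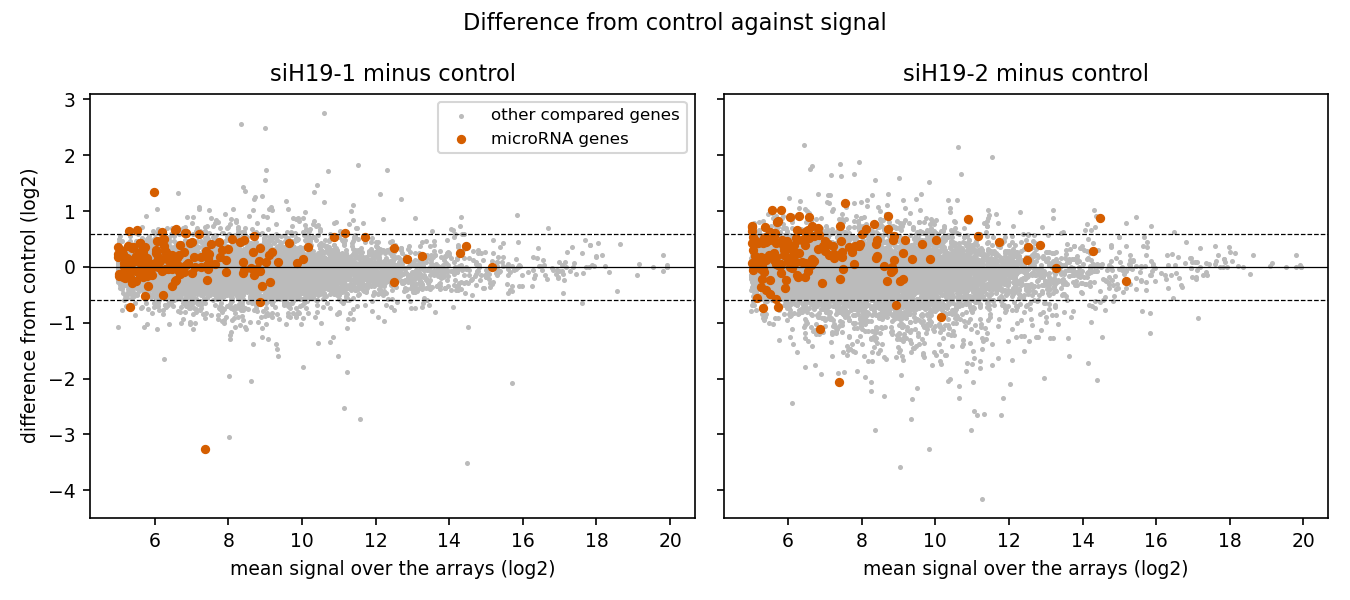
Difference from control (log2, vertical axis) against the mean signal over the 3 arrays (log2, horizontal axis) for siH19-1 (left) and siH19-2 (right). Orange points are the 168 microRNA genes, grey points the other compared genes, and dashed lines mark 1.5-fold; most orange points lie above 0, with medians of 0.10 and 0.25, and MIR2054 lies far below at -3.27 and -2.07.

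The share that rose was above that of all compared genes in each range of signal. With siH19-2, 14.9% of the microRNA genes between 5 and 6 rose, beside 2.38% of all compared genes of that signal. These rises include MIR3646, MIR3662 and MIR147A, which were under 5 in control (4.70, 4.65 and 4.74). Their means reached 5 only through higher siRNA arrays, so their rises are partly built into the filter, which all compared genes also passed. Between 6 and 8 the shares were 17.2% and 2.63%, and at 8 or more 18.9% and 3.47%. With siH19-1 the shares were 4.48% and 0.569%, 7.81% and 1.36%, and 2.7% and 2.25% for the same ranges, so in the brightest range the pair lay close. The share that fell was not below the background everywhere: between 5 and 6 it was 1.49% with siH19-1 beside 0.827% of all compared genes, and 2.99% with siH19-2 beside 1.76%. Between 6 and 8 the shares that fell were 1.56% and 2.22% with siH19-1 and 3.12% and 7.24% with siH19-2, and at 8 or more 2.7% and 3.84%, and 5.41% and 13.9%.

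In the values as deposited, the medians of protein-coding and small nucleolar RNA genes lay below control, and those of the other kinds of sequence above it. Median signals over all probe sets were themselves higher on the siRNA arrays (3.47 in control, 3.53 with siH19-1, 3.57 with siH19-2). Medians by kind were not recomputed after median centring, so the sign of a small one can depend on the scaling. Protein-coding genes (8371) had medians of -0.07 and -0.09, and 2.29% rose and 9.59% fell with siH19-2. The 206 long noncoding RNA genes had medians of 0.04 and 0.09, and 4.37% rose and 3.88% fell. Probe sets with no gene name (8553) had medians of 0.02 and 0.08; of these 9.80% rose and 5.93% fell with siH19-2, so a surplus of rises was not found in microRNA genes alone. Of 29 genes of the repeat-derived MIR548 family, 11 rose and 0 fell with siH19-2, with a median of 0.40. Of 146 small nucleolar RNA genes, 9 rose and 21 fell, with a median of -0.12.

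Probe sets that name a microRNA gene together with another gene were left out by the rule, and 118 of 218 of them were at 5 or more. Their medians were -0.07 and -0.09. With siH19-1, 1 rose (0.847%) and 2 fell (1.69%), beside 1.58% and 2.63% of all compared genes. With siH19-2, 1 rose (0.847%) and 11 fell (9.32%), beside 2.94% and 8.95%, so the share that fell was near the background. They include the set of the MIR17HG cluster, which holds the growth-promoting miR-17 to miR-92a genes, at 6.43, 6.24 and 5.79. It was lowest with siH19-2, where it fell by 0.64. In direction these shared sets stood nearer to protein-coding genes than to the microRNA genes with a set of their own.

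**Figure D2:**
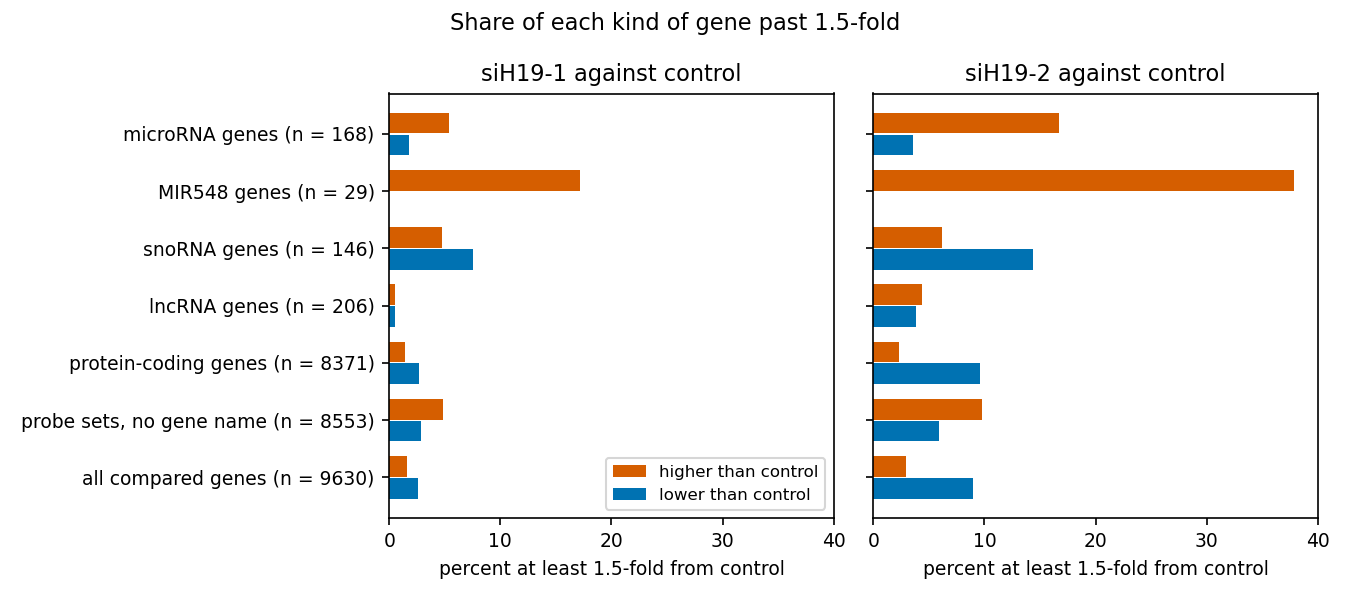
Percent of each kind of gene at least 1.5-fold higher (orange) or lower (blue) than control with siH19-1 (left) and siH19-2 (right), with the number of genes or probe sets at 5 or more in brackets. With siH19-2, 16.7% of the microRNA genes were higher and 3.57% lower, against 2.94% and 8.95% of all compared genes; there is 1 array per condition and so no error bar.

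With both siRNAs 4 microRNA genes rose (2.38%) and 2 fell (1.19%), where 0.685% of all compared genes rose with both and 1.09% fell with both. The furthest from control was MIR2054, at 9.15, 5.88 and 7.08. The control array was highest and siH19-1 lowest, and the differences of -3.27 and -2.07 are falls of 9.65-fold and 4.20-fold. MIR2054 overlaps no other RefSeq gene. The GC content of its hairpin, 16.3%, is the lowest among the 133 hairpins with a sequence, whose median is 55.8%.

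MIR3613 read 5.82, 5.10 and 5.08, so the siRNA arrays lay together below control (-0.72 and -0.74). It lies on the same strand within DLEU2, the long noncoding RNA that hosts miR-15a and miR-16-1. The probe set shared by DLEU2, MIR15A and MIR16-1 read 6.78, 6.61 and 6.72. That set was within 0.17 of control on both arrays, so the fall was seen at MIR3613 and not at the shared set.

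MIR3685 read 6.06, 6.73 and 6.96 and was highest with siH19-2, with rises of 0.67 and 0.90. Its neighbour within 10 kb, MIR331, lay under 5, at 2.71, 2.64 and 2.94. MIR186 read 6.11, 6.77 and 6.77, the same on both siRNA arrays (1.58-fold). Its host on the same strand, ZRANB2, which encodes a splicing factor, read 10.87, 10.88 and 11.13 and did not reach 1.5-fold.

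MIR4692 read 5.08, 5.74 and 5.70, with control lowest. It lies opposite to STARD10, a lipid transfer protein gene, which read 6.74, 6.44 and 6.73. MIR1260A read 6.41, 7.02 and 7.02, rises of 0.61 with each siRNA. MIR1260B, which shares its seed, read 7.77, 7.89 and 8.14 and was 0.12 and 0.37 above control, short of 1.5-fold. All 4 genes that rose with both siRNAs rose by less than 2-fold, and only MIR3685 among them remained past 1.5-fold with both after median centring. MIR3685, MIR186 and MIR1260A remained past it under quantile normalization and cyclic loess. MIR4692 did so under none of these scalings, whereas MIR2054 and MIR3613 remained past it under each.

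**Figure D3:**
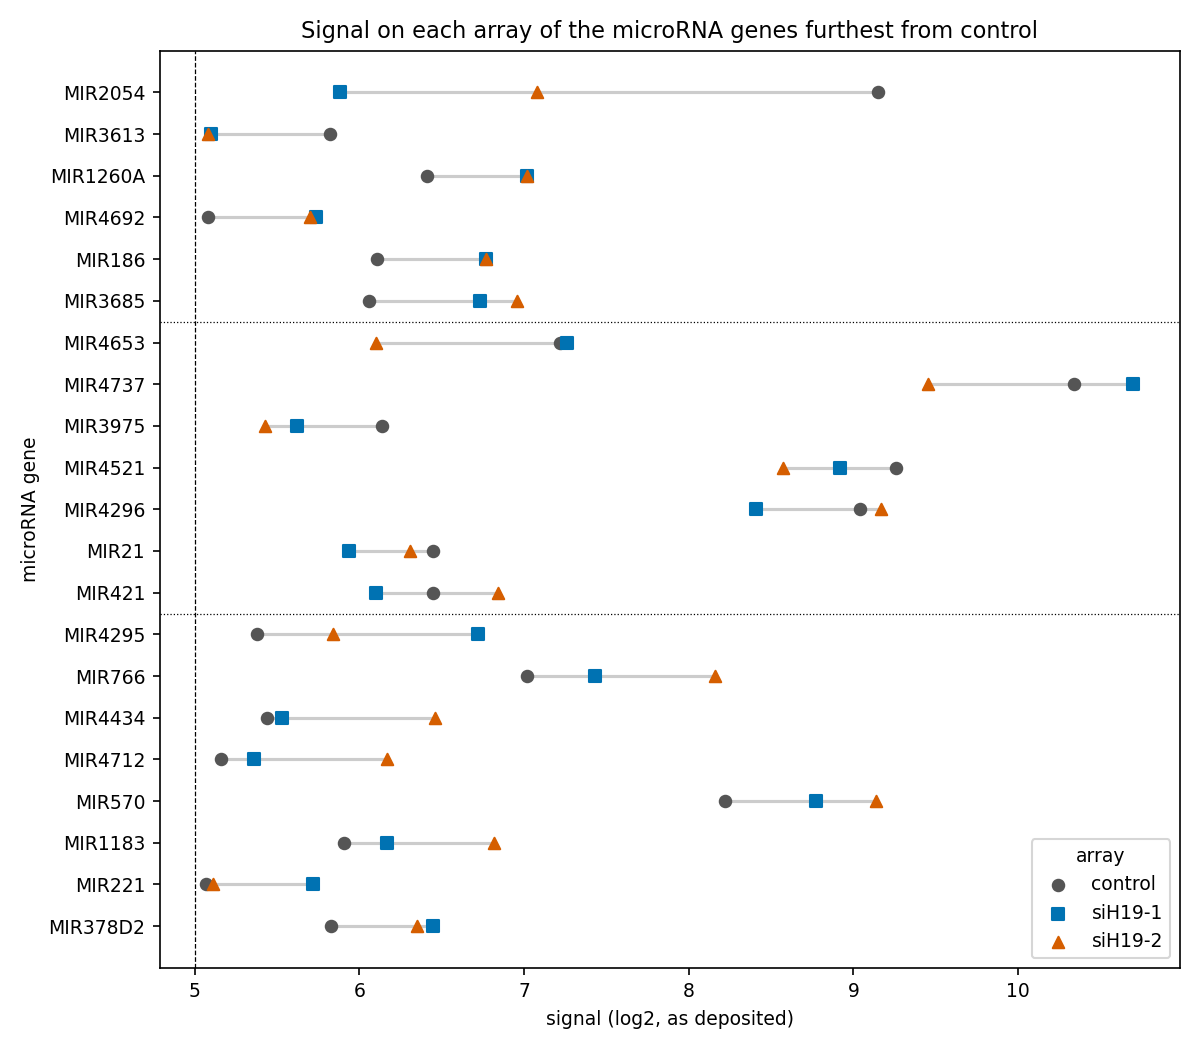
Log2 signal (horizontal axis) on the control (grey circle), siH19-1 (blue square) and siH19-2 (orange triangle) array for 21 microRNA genes. The top block holds the 6 genes past 1.5-fold with both siRNAs, the middle block the other genes furthest below control with either siRNA and the bottom block those furthest above; MIR2054 spans 9.15 to 5.88, and the dashed line marks the signal minimum of 5.

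With siH19-1 alone, MIR4295 moved furthest upward. It read 5.38, 6.72 and 5.84, a rise of 1.34 (2.53-fold) with siH19-1 and a difference of 0.46 with siH19-2. Its host VTI1A, a SNARE gene of endosomal transport, was 0.23 and 0.26 above control. The product of MIR4295 has the seed of miR-454-3p, and MIR454, which lies in SKA2, read 6.02, 6.07 and 5.65. The siH19-1 array thus stood out at MIR4295 and not at the gene with the same seed.

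MIR221, whose product is known to repress the cell cycle inhibitor p27, read 5.07, 5.72 and 5.11. It rose with siH19-1 (0.65) and was back near control with siH19-2 (0.04). Its cluster partner MIR222, under the signal minimum, was 0.35 and 0.04 above control. MIR378D2 rose with siH19-1 by 0.62 and was 0.52 above control with siH19-2. MIR3682, named after its values were seen, completes the 9 that rose, at 6.45, 7.06 and 7.02.

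The 3 that fell with siH19-1 were MIR2054, MIR3613 and MIR4296. MIR4296 read 9.04, 8.41 and 9.17, lowest with siH19-1, and lies in CTBP2, a transcriptional corepressor gene that read 9.92, 9.57 and 9.69. MIR4322, which has its seed, read 6.35, 6.32 and 6.43. MIR421 was below control with siH19-1 (-0.35) and above it with siH19-2 (0.39). Its host FTX, a long noncoding RNA of the X-inactivation region, was 0.09 and 0.21 above control.

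MIR21, an oncogenic microRNA gene abundant in many carcinomas, read 6.45, 5.94 and 6.31 at the probe set that bears its name alone. It was lowest with siH19-1, at -0.51, under 1.5-fold. The set it shares with its host VMP1 read 14.88, 14.84 and 14.81, nearly level over the arrays. MIR590, which has the seed of MIR21, read 8.65, 8.75 and 9.13, above control with both siRNAs.

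With siH19-2 the furthest upward was MIR766, at 7.02, 7.43 and 8.16. It was highest with siH19-2, a rise of 1.14 (2.20-fold), while its host SEPTIN6, a cytoskeletal GTPase gene, was 0.25 above control. MIR4434, within AFTPH, read 5.44, 5.53 and 6.46. MIR4712 read 5.16, 5.36 and 6.17. Both stayed near control with siH19-1 and rose with siH19-2, by 1.02 and 1.01.

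MIR4516, which has the seed of MIR4434, read 6.70, 7.15 and 7.16, above control by 0.45 and 0.46. MIR570 (8.22, 8.77 and 9.14) and MIR1183 (5.91, 6.17 and 6.82) rose with siH19-2 by 0.92 and 0.91, and each had an intermediate value with siH19-1. MIR1183 lies in SP4, a transcription factor gene that was 0.12 above control. Besides MIR3685, described above (0.90), the other genes that rose with siH19-2 did so by 0.59 to 0.89. They include, chosen after their values were seen, MIR449B at 5.64, 5.94 and 6.53, of a family that shares its seed type with miR-34, and MIR365A at 5.34, 5.58 and 6.15.

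Of the 6 that fell with siH19-2, MIR4653 read 7.22, 7.26 and 6.10. It was level with control on the siH19-1 array and fell by 1.12 with siH19-2. Its host AP1S1, a clathrin adaptor gene, was below control by less than 1.5-fold on both (-0.28 and -0.31). MIR4737, which overlaps HEATR6, read 10.34, 10.70 and 9.45, above control with siH19-1 and 0.89 below it with siH19-2. MIR4521 read 9.26, 8.92 and 8.57, falling to 1.61-fold below control with siH19-2.

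MIR3975 read 6.14, 5.62 and 5.43, with control highest. It was 0.52 below control with siH19-1 and fell by 0.71 with siH19-2. Its host on the same strand, GALNT1, the enzyme gene that starts mucin-type O-glycosylation, read 9.60, 11.06 and 10.58 and rose with both, by 1.46 and 0.98. Gene and host thus moved in opposite directions on both arrays.

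Between the siRNAs, 14 microRNA genes were at least 1.5-fold higher with siH19-2 than with siH19-1 (8.33%) and 5 were lower (2.98%), where 2.51% of all compared genes were higher and 5.7% lower. The widest gaps were at MIR4737 (-1.25, siH19-2 minus siH19-1), MIR2054 (1.20), MIR4653 (-1.16), MIR4434 (0.93), MIR4295 (-0.88) and MIR1284 (0.83). MIR1284, in FOXP1, read 5.78, 5.44 and 6.27 and reached 1.5-fold from control with neither siRNA. MIR2054 was below control on both arrays, less so with siH19-2.

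By RefSeq, 98 of the 168 genes lie on the same strand within another gene, 15 lie opposite to one, 30 overlap none, and for 25 the strand was not known here. The median difference with siH19-2 was 0.24 for the same-strand genes, 0.37 for the opposite ones and 0.36 for those with no overlap. With siH19-1 the medians were 0.10, 0.14 and 0.08. All of these medians lay above 0.

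A host at 5 or more was measured for 61 of the same-strand genes. The median difference of the hosts' entries was 0.01 with siH19-1 and -0.06 with siH19-2, and that of their microRNA genes 0.14 and 0.24. With siH19-1, 5 of these 61 microRNA genes and 3 of the 61 host entries were past 1.5-fold in either direction, and with siH19-2, 14 and 4. Of all compared genes, 1.58% rose and 2.63% fell with siH19-1, and 2.94% rose and 8.95% fell with siH19-2. In no pair were both past it in the same direction with either siRNA (0 of 61). In 1 pair, MIR3975 and GALNT1 with siH19-2, they were past it in opposite directions. With so few host entries past 1.5-fold, few joint pairs could arise, so the 0 cannot show whether genes and hosts move together. Across the 61 pairs, which share arrays and in a few cases a host, the correlation of the differences was weak, with Spearman's rho of 0.19 and 0.25 and Pearson's r of -0.01 and 0.12.

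Single pairs show how far a gene and its host could part. MIR1976 rose with siH19-2 (6.48, 6.75 and 7.17), while its host RPS6KA1, a kinase gene of the ERK pathway, read 8.12, 7.19 and 7.83 and fell with siH19-1. GDF15, a stress-induced cytokine gene, read 10.67, 11.06 and 9.67 and fell with siH19-2 by 1.00. MIR3189, which lies in it, read 7.42, 7.65 and 7.38. MIR3173 lies in DICER1, which read 11.38, 11.19 and 11.25, and was itself 0.46 and 0.27 above control at 5.92, 6.38 and 6.19. These pairs were chosen after their values were seen.

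**Figure D4:**
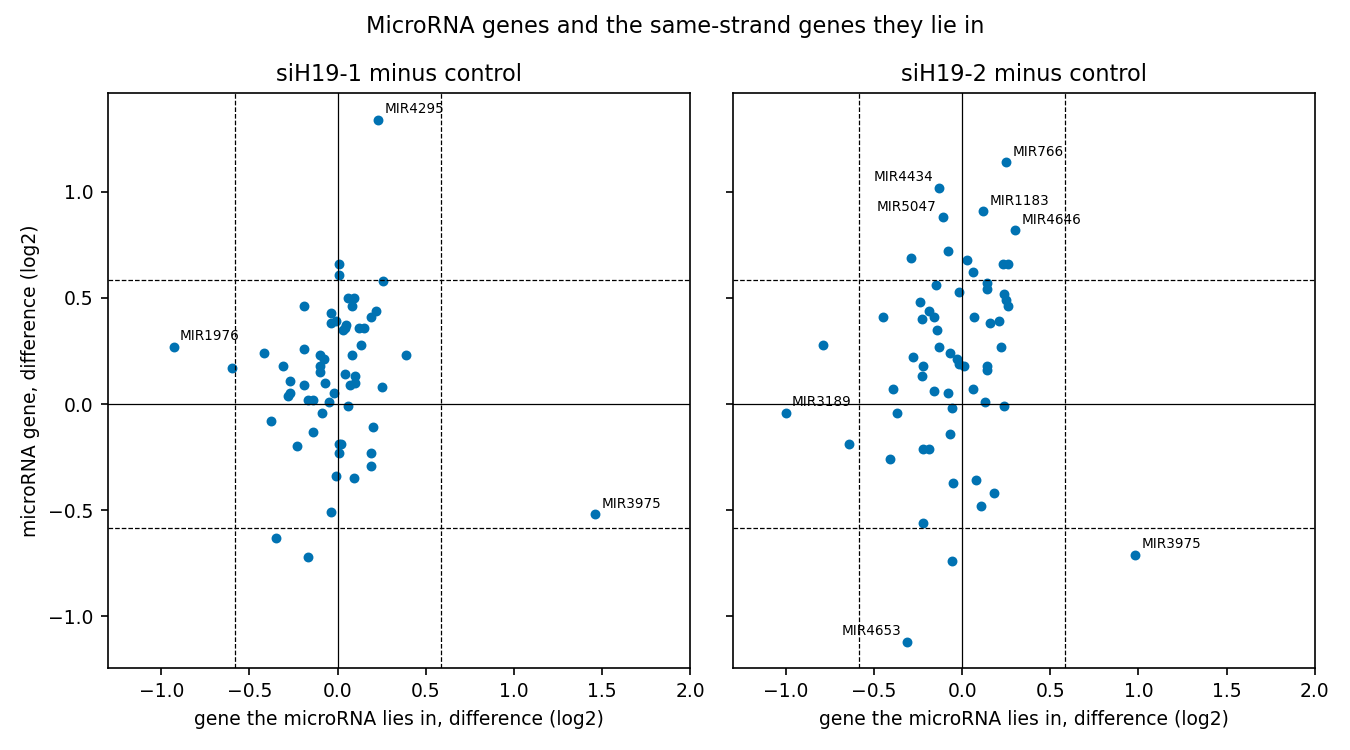
Difference from control (log2) of 61 microRNA genes (vertical axis) against that of the same-strand gene each lies in (horizontal axis), with siH19-1 (left) and siH19-2 (right); dashed lines mark 1.5-fold. Few of the 61 host entries are past 1.5-fold (3 and 4), and no point lies past it in the same direction on both axes. Of all compared genes, 1.58% rose and 2.63% fell with siH19-1, and 2.94% and 8.95% with siH19-2. MIR3975 lies at the lower right, with its host GALNT1 1.46 and 0.98 above control.

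Some neighbouring microRNA genes were set side by side, chosen after their values were seen. MIR29A read 8.67, 8.94 and 8.42, while MIR29B1, within 10 kb of it and under the signal minimum, read 4.97, 4.26 and 4.44. Both belong to the miR-29 family, known for repressing collagen genes, and only on the siH19-2 array were both below control. MIR365A and its neighbour MIR193B (3.70, 4.07 and 4.30) were both above control on both arrays, by 0.24 and 0.81 for MIR365A and 0.37 and 0.60 for MIR193B. MIR181B1 (7.50, 7.94 and 7.77) and MIR181D (5.70, 5.60 and 5.75) share a seed with MIR4262 (8.93, 9.19 and 9.42). MIR181B1 and MIR4262 were above control on both arrays, and MIR181D was within 0.10 of it.

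There were 6 pairs of included genes within 50 kb of each other. Of these, MIR193A (7.29, 7.26 and 7.76) and MIR4725 (8.57, 8.90 and 9.13) were highest with siH19-2. MIR4489 (5.44, 5.42 and 6.05) and MIR4690 (6.37, 6.76 and 6.93) were too, and MIR4489 rose there by 0.61. MIR3677 with MIR4717 and MIR500A with MIR502 had control lowest in each case, with differences from 0.10 to 0.54, and so had MIR1206 with MIR1207, from 0.07 to 0.22. The closest pair, MIR3180-5 (5.11, 4.94 and 5.06) and MIR4516 (6.70, 7.15 and 7.16), lay on opposite sides of control on both arrays.

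Few of the microRNA genes best known in colon epithelium were included. Of 32 on a list of colon and colon cancer microRNA genes that had a probe set of their own, 3 were at 5 or more: MIR21, MIR221 and MIR29A. Another 18 on the list had only shared probe sets, which the rule left out whatever their signal. Some of these sets were at 5 or more, such as that of MIR7-1 with HNRNPK (mean 13.49). Others were under it, such as that of MIR203A with MIR203B (2.96). The epithelial genes MIR200C (4.51, 4.89 and 4.76) and MIR141 (4.30, 4.56 and 4.60) lay just under the minimum, and MIR192, abundant in intestine, had a mean of 2.74. Of 10 measured let-7 genes, MIRLET7F1 was included, at 5.40, 5.21 and 5.36, within 1.5-fold of control on both arrays. A dim probe set cannot be called absent, since detection calls were not used here.

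Of 24 genes that make and use microRNAs and have a probe set of their own, 21 were at 5 or more. Their medians were -0.14 and -0.08, beside -0.06 and -0.07 over all compared genes. With siH19-1, 0 of them rose or fell, and with siH19-2, 0 rose and 3 (14.3%) fell, where 8.95% of all compared genes fell. The 3 were TNRC6B, an Argonaute partner that recruits the silencing machinery (8.50, 8.13 and 7.26), the nuclear cap-binding gene NCBP1 (11.13, 11.06 and 10.32), and the exporter XPO5 (10.16, 9.83 and 9.54). All 3 were lowest with siH19-2. DROSHA read 9.59, 9.13 and 9.22 and stayed within 1.5-fold of control. Through shared probe sets, AGO4 rose with siH19-2 (0.77) and KHSRP, a binding protein of let-7 precursors, fell (-0.59), while DGCR8 was at -0.28 and -0.42.

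Hairpins of the microRNA genes included had a median GC content of 55.8% (133 genes), against 48.4% in the 714 with a hairpin sequence under the signal minimum. The correlation of GC content with the difference from control was weak: Spearman's rho across the 133 genes was -0.09 with siH19-1 and -0.04 with siH19-2. Pearson's r was 0.1 with each siRNA, of the opposite sign, so the values show no clear direction. Both measures are a description over genes that share the same arrays. Hairpin length was alike, with medians of 83 and 82 bases.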

How the data were processed

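Total RNA of DLD1 cells was read on 3 arrays, 1 per condition, so a comparison is a difference between single arrays and no p-value was computed. Values were deposited in log2 units, made by the authors with Affymetrix Expression Console and RMA (background correction, normalization between arrays, probe summary), per the submitters' processing notes. Tool versions were not given in the sources used here. Values run from 1.78 to 19.93, so a step beyond plain RMA is possible, and 0 of the 168 genes exceed 16. Of 67528 probe sets, 23781 carry 1 symbol; the platform annotation can be old. Genes with a mean of at least 5 were compared (9630 genes), and a difference of at least 1.5-fold was counted. Names, strand, overlap and sequences come from RefSeq tables of GRCh38.p14. The members and lists were chosen with earlier results of these data known. Named genes are those past 1.5-fold with both siRNAs, the 6 furthest each way with each siRNA and between them, the 10 brightest, those next to the minimum, list members, and their hosts; others are said to be chosen after their values were seen. Alternatives were median centring, quantile normalization and cyclic loess (limma 3.58.1, R 4.3.3), minimums of 4 and 6, probe-set means and a 2-fold threshold. Other steps used Python 3.11.15, pandas 2.3.3 and matplotlib 3.10.9. The counting was checked on simulated data.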

Additional observations from a re-analysis of the deposited data

Results flagged for a closer look

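At 11 microRNA genes the siRNA arrays lay on opposite sides of control and at least 1.5-fold apart. With 1 array per condition the difference was not tested. The matching share of all compared genes was not counted, so these 11 are a list and say nothing of a surplus. At 6 of them the signal was at least 1.5-fold from control with 1 of the siRNAs. For these, siH19-2 minus siH19-1 on the log2 scale was -1.25 at MIR4737 and -1.16 at MIR4653, where siH19-2 was the lower array. It was 0.82 at MIR1299, 0.76 at MIR4296, 0.66 at MIR4523 and 0.63 at MIR4489, where siH19-2 was the higher array. MIR1299 read 8.52, 8.38 and 9.20 on the control, siH19-1 and siH19-2 arrays, and MIR4523, within TAOK1, read 6.27, 6.23 and 6.89. With siH19-1, MIR4653 (0.04), MIR4523 (-0.04) and MIR4489 (-0.02) were close to control, and MIR4653 was at -0.02 after median centring, on the same side as with siH19-2. The other 5 reached 1.5-fold from control with neither siRNA: the gap was 0.83 at MIR1284, 0.77 at MIR4440, 0.74 at MIR421, 0.59 at MIR3622A and -0.59 at MIR4742.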

How the results depend on the processing

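The main counts of rises were 9 (siH19-1), 28 (siH19-2) and 4 (both), and of falls 3, 6 and 2. Median centring moved the median of all compared genes to -0.12 with siH19-1 and -0.17 with siH19-2. It gave 5, 18 and 1 rises, where 1.11%, 1.92% and 0.467% of all compared genes rose. The 1 rise with both siRNAs among 168 genes was thus close to the background share. A signal minimum of 4, with 300 genes, gave 15 rises with siH19-1 and 8 genes lower with siH19-2 than with siH19-1. A minimum of 6, with 101 genes, gave 18 rises with siH19-2, 1 fall with both, and 9 higher and 2 lower between the siRNAs; these counts come from fewer genes. At a 2-fold threshold 1 gene rose and 1 fell with siH19-1, 3 rose and 2 fell with siH19-2, 0 rose and 1 fell with both, and 1 was higher and 2 lower between the siRNAs. No named difference of at least 1.5-fold changed sign; 6 of 111 named values did in some setting, each 0.09 or less in size as deposited, such as MIR221 with siH19-2 (0.04, and -0.06 after median centring) and MIR4653 with siH19-1 (0.04 and -0.02). Quantile normalization gave 10 and 30 rises, where 1.79% and 3.57% of all compared genes rose. Cyclic loess gave 12 and 27, where 1.94% and 3.29% rose. Setting aside the genes whose probe set identifier names another chromosome, a choice made after seeing the data like that of 5 or more on every array, left 28 rises and 6 falls with siH19-2 among 166 genes. For the other minimums, the 2-fold threshold and the smaller sets of genes, the matching share of all compared genes was not counted. No paired analysis was possible because each condition has 1 array. With 1 array per condition, no replicate could be left out, and precision is limited by how few arrays there are.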
